A study of Mus musculus with 19 samples.

Results

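Hepatic and endodermal nuclear factors are a set of 8 genes that encode DNA-binding proteins of liver and visceral endoderm: Hnf4a, Hnf4g, Foxa1, Foxa2, Foxa3, Cebpa, Onecut1 and Prox1. They were chosen by gene symbol, and all 8 were found among the 23337 gene symbols of the expression tables, each as 1 RefSeq transcript. RNA-seq was available for 11 libraries in 5 groups. The visceral yolk sac (VYS) of FVB mouse embryos gave 1 library of yolk sac endoderm (ysE) at E12.5, 2 of ysE at E9.25 and 2 of the mesoderm layer at E9.25, and FVB embryos gave 2 libraries of E12.5 liver. Cystic embryoid bodies (EBs), which are hollow aggregates differentiated from embryonic stem (ES) cells without a yolk sac, gave 4 libraries, at d10 and d15 from each of the C57Bl/6x129 ES clones A9 and JN. Each tissue sample pooled a whole litter. DispaseII was used to split the 2 layers by hand, and vessels stayed in the mesoderm libraries. Bisulfite sequencing was available for 2 libraries each of E12.5 ysE, E12.5 liver and d15 cystic EBs, from crosses between CAST and FVB made in both directions (CxF and FxC) or from 1 ES clone of each cross, and H3K4me3 ChIP-seq for 1 sample of whole E12.5 VYS pooled from 2 litters.

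In background, HNF4A is a nuclear receptor that binds DNA as a homodimer and holds together the transcription programme of hepatocytes and of visceral endoderm, and HNF4G is its paralog of gut and kidney. The FOXA proteins are forkhead pioneer factors, able to bind their sites in closed chromatin before other factors of the endoderm programme do. C/EBPα is a leucine zipper activator of metabolic genes, ONECUT1 (HNF6) is a cut-homeodomain activator of fetal hepatocytes, biliary cells and pancreas, and PROX1 is a homeodomain factor of hepatoblasts that also specifies lymphatic endothelium. These factors bind one another's promoters, and Hnf4a itself is transcribed from 2 promoters, a distal one used in pancreas and gut and a proximal one used in mature liver.

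Hnf4a has 2 RefSeq starts on the plus strand of chromosome 2 (mm10), and bases upstream of them are shown because the libraries differed in which end of the gene they covered. The stretch before the distal start at position 163506857, chr2:163506607-163506810, is 204 bases long, since it was ended where the annotated gene span begins, short of the start, and holds a copy of ATCAATA, the core that ONECUT proteins bind, which begins 59 bases before that start. The stretch before the proximal start at position 163547155, chr2:163546905-163547154, is 250 bases long and reaches the start. Over equal windows of 300 bases each start has 4 CpGs. Capitals mark the ATCAATA copy in the distal sequence and the CpGs in the proximal one.
Hnf4a distal: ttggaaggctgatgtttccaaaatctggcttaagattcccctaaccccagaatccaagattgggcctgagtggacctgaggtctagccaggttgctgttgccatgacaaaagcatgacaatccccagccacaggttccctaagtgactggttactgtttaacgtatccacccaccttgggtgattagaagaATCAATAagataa
Hnf4a proximal: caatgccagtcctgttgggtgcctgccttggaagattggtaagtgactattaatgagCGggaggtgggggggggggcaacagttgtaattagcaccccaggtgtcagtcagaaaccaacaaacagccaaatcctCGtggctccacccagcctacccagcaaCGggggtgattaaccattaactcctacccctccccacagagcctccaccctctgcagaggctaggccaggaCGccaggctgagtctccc
The Foxa3 promoter, chr7:19023540-19023789 on the minus strand, is shown because its window differed most in methylation between cystic EBs and ysE among the members, and its 18 CpGs are in capitals.
Foxa3: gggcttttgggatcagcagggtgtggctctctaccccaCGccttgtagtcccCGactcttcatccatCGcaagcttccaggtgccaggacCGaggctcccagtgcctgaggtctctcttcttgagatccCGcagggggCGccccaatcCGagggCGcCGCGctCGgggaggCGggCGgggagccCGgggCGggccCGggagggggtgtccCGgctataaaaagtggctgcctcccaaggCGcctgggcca
Sequences came from RefSeq (GRCm38.p6), in which 7 of the 8 members were matched, with 11 starts. Hnf4g had none. Over both strands, ATCAATA occurs in 2.05% of 32817 promoters of 300 bases. A FOXA core, TGTTTAC, present in 3.65% of promoters, occurs before Foxa1, and ATCAATA occurs once more, before the first start of Foxa2. CAAAGTCCA, an HNF4 site found in 0.475% of promoters, and TTGCGCAA, a C/EBP site found in 0.183%, occur in none of the 11.

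Libraries held 40453779 to 169981821 counts over RefSeq transcripts. The E12.5 ysE library was not stranded, those of E9.25 ysE, mesoderm and JN cystic EBs were made with dUTP, and those of liver and A9 cystic EBs with ScriptSeq. Clone and library kit therefore cannot be told apart among the cystic EBs. Nor can tissue and kit wherever E12.5 ysE, the only library that was not stranded, is compared with another group. The hepatoblast markers Alb, Ahsg, Dlk1 and Fgb summed to 517 and 1097 RPKM in liver, but to 1745 RPKM in E12.5 ysE, 288 and 346 RPKM in E9.25 ysE and at most 76.8 RPKM elsewhere. The 4 split evenly, since Fgb and Ahsg were higher in E12.5 ysE (1508 and 152 RPKM) than in liver (means of 147 and 81.1 RPKM), and Alb and Dlk1 were higher in liver (562 and 17.2 RPKM) than in E12.5 ysE (80.5 and 3.93 RPKM). The summed RPKM of 5 yolk sac endoderm markers (Amn, Cubn, Afp, Ttr, Apoa1) was 42127 in E12.5 ysE, 9429 and 10763 at E9.25, 1036 and 1828 in the mesoderm layer, 121 to 1154 in cystic EBs and 1591 and 2880 in liver, where Afp made up most of it and Amn and Cubn were lower (means of 0.074 and 0.49 RPKM) than in cystic EBs (5.67 and 19.5 RPKM), and 5 erythroid and blood markers summed to 310 and 556 in liver, 176 and 192 in mesoderm and under 7 in every other library. The undifferentiated ES cell markers Pou5f1, Nanog and Zfp42 summed to 64.3 to 137 RPKM in cystic EBs and to at most 5.53 elsewhere. Floor plate and notochord markers, cells that also use Foxa2, summed to 3.09 to 15.2 RPKM in cystic EBs and to at most 0.833 elsewhere, with Shh at 1.83 to 5.4 and T at 1.24 to 11.2 RPKM. In bulk samples such as these, fewer cells of a type and less RNA per cell cannot be told apart.

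Hnf4a had the highest level per length of the 8 genes in both ysE stages, in liver and in mesoderm. It was at 109 RPKM (reads scaled to transcript length and library size) in E12.5 ysE, at 87.1 and 98.4 RPKM in E9.25 ysE, at 11.6 and 14.0 RPKM in liver and at 5.23 and 11.5 RPKM in mesoderm. In cystic EBs it was at 8.93 RPKM (d10 A9), 8.36 RPKM (d15 A9), 3.23 RPKM (d10 JN) and 5.08 RPKM (d15 JN). The ysE libraries stood far above all others, liver lay just above cystic EBs, and the ranges of cystic EBs and mesoderm overlapped. Fold changes here and below come from counts in edgeR, whose quasi-likelihood test was run on 24858 transcripts with Benjamini-Hochberg adjustment. The 4 cystic EB libraries, d10 and d15 of clones A9 and JN, entered as separate samples without a term for clone. Their SEs and p-values thus rest on libraries of 2 clones, not on 4 independent clones. The threshold was an FDR of 5%, or 1% where cystic EBs were set against the E12.5 library of ysE. By this test Hnf4a was 21.8-fold lower in cystic EBs than in ysE of E12.5 (log2 -4.45 ± 0.49 SE, n = 4 and 1, adjusted p = 0.000164) and 19.7-fold lower than in E9.25 ysE (log2 -4.30 ± 0.44 SE, n = 4 and 2, adjusted p = 8.81e-05). Against liver it was 2.5-fold lower (log2 -1.32 ± 0.42 SE, n = 4 and 2, adjusted p = 0.0294), a call lost without either liver library (adjusted p = 0.0818 without A and 0.141 without B) or without d15 JN (0.0737).

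Hnf4g, the paralog, was barely detected outside liver. It had 41 and 21 counts (0.108 and 0.066 RPKM) in the 2 liver libraries, 0 to 3 counts in each of the other 9, and 0 counts in E12.5 ysE. Summed over libraries and scaled to depth, liver had at least 6.80-fold more than E12.5 ysE, for which a count of 0 allows up to 3 counts. The ratio of liver to cystic EBs was 38.7 (95% interval 14.4 to 147, counting error only), and that of liver to E9.25 ysE was 46.8 (15.3 to 233). Among cystic EBs, the A9 libraries, made with the same kit as liver, had 0.004 and 0.011 RPKM, and both JN libraries had 0. The first ratio pools both kits, so it is larger than A9 alone would give. Cystic EBs against liver passed the test (adjusted p = 0.0119; 0.0549 without liver A) and E12.5 ysE against liver did not (adjusted p = 0.0916).

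**Figure D1:**
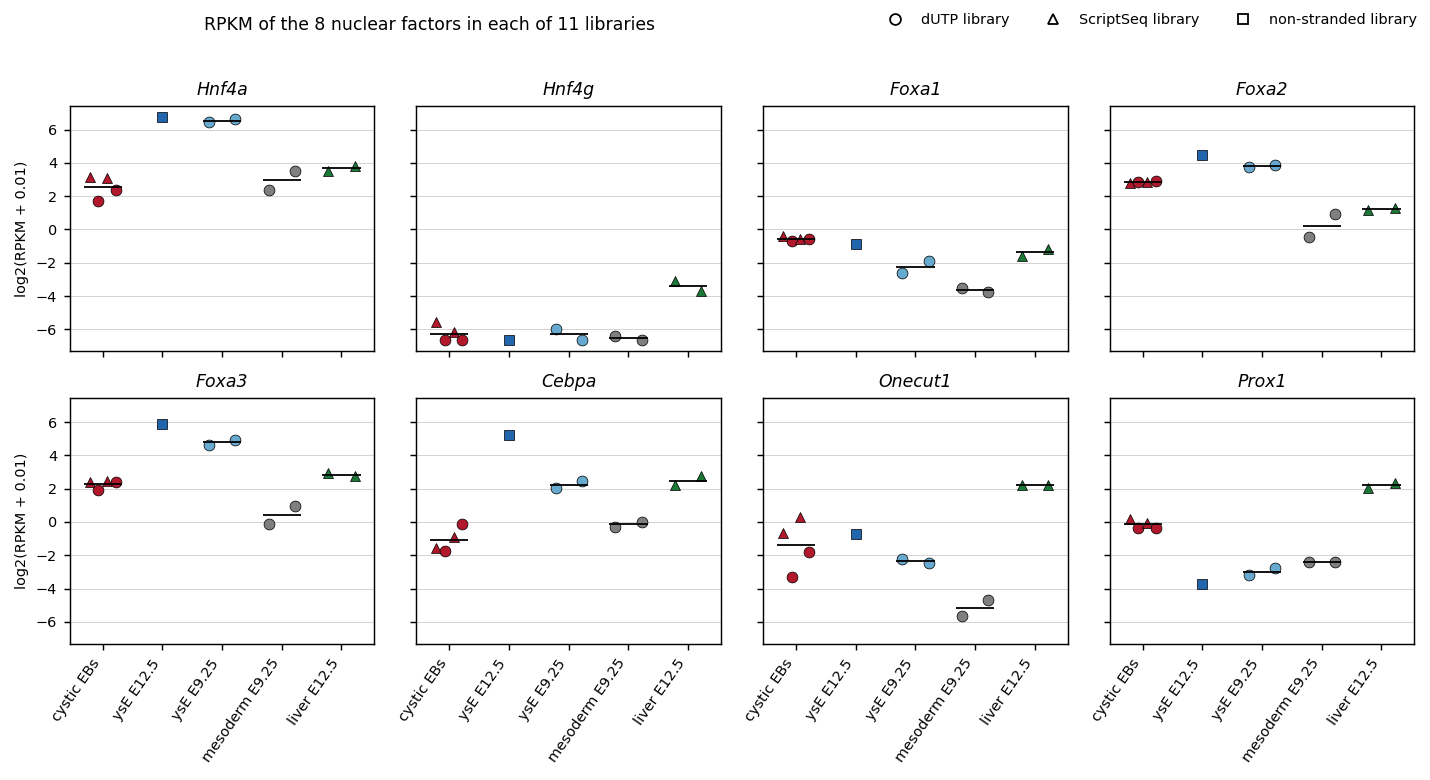
RPKM of each of the 8 nuclear factors on a log2 scale (log2 of RPKM + 0.01), with 1 point per library, shaped by library kit, and a line at the mean of these log2 values for groups of 2 or 4 libraries. Hnf4a, Foxa2 and Foxa3 are highest in ysE of both stages, and Cebpa is highest in ysE of E12.5 only. Onecut1, Prox1 and Hnf4g are highest in liver, and Foxa1 varies over the narrowest range.

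The 3 FOXA genes differed from one another in where they were expressed. Foxa2, the FOXA gene required earliest for endoderm, was at 22.6 RPKM in E12.5 ysE, 13.2 and 14.5 RPKM in E9.25 ysE, 2.28 and 2.48 RPKM in liver and 0.725 and 1.88 RPKM in mesoderm. In the 4 cystic EB libraries it lay between 6.97 and 7.41 RPKM (7.20 ± 0.21, SD), the most even level of any member across days and clones. It was 4.04-fold lower than in E12.5 ysE (log2 -2.01 ± 0.37 SE, adjusted p = 0.00246), 2.63-fold lower than in E9.25 ysE (log2 -1.40 ± 0.31 SE, adjusted p = 0.00483) and 2.41-fold higher than in liver (log2 1.27 ± 0.34 SE, adjusted p = 0.0141). Foxa2 was the one member called higher than liver in cystic EBs, a call lost without liver A (adjusted p = 0.0854) or liver B (0.0770). The floor plate and notochord markers given above were present in the same 4 libraries, and their part in this level was not tested.

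Foxa3, the FOXA gene most abundant in adult liver, was at 58.0 RPKM in E12.5 ysE, 24.5 and 30.9 RPKM in E9.25 ysE, 7.56 and 6.69 RPKM in liver and 0.910 and 1.97 RPKM in mesoderm. Cystic EBs had 5.20 (d10 A9), 5.58 (d15 A9), 3.77 (d10 JN) and 5.34 (d15 JN) RPKM, below both liver libraries and above both mesoderm libraries. The gene was 15.0-fold lower than in E12.5 ysE (log2 -3.91 ± 0.34 SE, adjusted p = 5.43e-05) and 7.61-fold lower than in E9.25 ysE (log2 -2.93 ± 0.30 SE, adjusted p = 8.68e-05). The gap to liver was 1.80-fold (log2 -0.85 ± 0.30 SE, adjusted p = 0.0423) and did not pass when only ScriptSeq libraries were compared (adjusted p = 0.0540) or when any of 7 single libraries was left out (adjusted p = 0.0561 to 0.187).

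Foxa1, which shares targets with Foxa2, stayed under 1 RPKM everywhere. It was at 0.749, 0.658, 0.611 and 0.653 RPKM in cystic EBs (d10 A9, d15 A9, d10 JN, d15 JN), 0.531 RPKM in E12.5 ysE, 0.328 and 0.440 RPKM in liver, 0.152 and 0.256 RPKM in E9.25 ysE and 0.079 and 0.063 RPKM in mesoderm. In RPKM every cystic EB library lay above every other library, but RPKM carries no TMM scaling, which the fold changes do (factors of 0.766 to 1.21). The difference passed against E9.25 ysE, where it was 2.39-fold (log2 1.26 ± 0.37 SE, adjusted p = 0.0180; 0.129 without E9.25 ysE A), but not against E12.5 ysE (log2 -0.04 ± 0.45 SE, adjusted p = 0.957) or liver (log2 0.47 ± 0.35 SE, adjusted p = 0.299).

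Cebpa had the largest change of the set. It was at 37.0 RPKM in E12.5 ysE, 4.08 and 5.44 RPKM in E9.25 ysE, 4.68 and 6.66 RPKM in liver, 0.812 and 0.993 RPKM in mesoderm and, in cystic EBs, 0.330 (d10 A9), 0.523 (d15 A9), 0.286 (d10 JN) and 0.919 (d15 JN) RPKM. E9.25 ysE and liver overlapped, and so did mesoderm and cystic EBs. In cystic EBs it was 93.2-fold lower than in E12.5 ysE (log2 -6.54 ± 0.47 SE, adjusted p = 2.45e-05), 12.7-fold lower than in E9.25 ysE (log2 -3.67 ± 0.40 SE, adjusted p = 0.000123) and 13.9-fold lower than in liver (log2 -3.80 ± 0.41 SE, adjusted p = 0.000128). Each of these calls held in every alternative that was run.

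Onecut1 and Prox1 were liver genes in these libraries. Onecut1 was at 4.66 and 4.57 RPKM in liver, 0.598 RPKM in E12.5 ysE, 0.207 and 0.168 RPKM in E9.25 ysE and 0.010 and 0.029 RPKM in mesoderm. The cystic EB libraries ran from 0.091 (d10 JN) and 0.279 (d15 JN) to 0.616 (d10 A9) and 1.20 (d15 A9) RPKM, with both A9 libraries above both JN libraries, so that their range covered both ysE stages. Cystic EBs were 10.6-fold below liver (log2 -3.40 ± 0.77 SE, adjusted p = 0.00643), with a log2 difference of -4.20 without d15 A9 and of -2.64 within ScriptSeq libraries. They did not differ by the test from E12.5 ysE (log2 -0.49 ± 1.03 SE, adjusted p = 0.719) or E9.25 ysE (log2 1.10 ± 0.85 SE, adjusted p = 0.302). Against E9.25 ysE the sign turned when only dUTP libraries were compared (log2 -0.40, adjusted p = 0.633).

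Prox1 had the largest increase over ysE of the members. It was at 1.14 (d10 A9), 0.95 (d15 A9), 0.767 (d10 JN) and 0.779 (d15 JN) RPKM in cystic EBs, at 0.067 RPKM in E12.5 ysE, 0.101 and 0.135 RPKM in E9.25 ysE, 0.175 RPKM in each mesoderm library and 4.05 and 5.14 RPKM in liver. The order liver, cystic EBs, mesoderm, E9.25 ysE, E12.5 ysE had no overlap between neighbouring groups. Cystic EBs were 10.5-fold above E12.5 ysE (log2 3.39 ± 0.48 SE, adjusted p = 0.000608), 5.63-fold above E9.25 ysE (log2 2.49 ± 0.32 SE, adjusted p = 0.000246) and 6.33-fold below liver (log2 -2.66 ± 0.26 SE, adjusted p = 9.01e-05). With only the 4 cystic EB libraries and the E12.5 ysE library in the fit, the first of these missed the 1% threshold (adjusted p = 0.0159). Lymphatic and venous endothelium also uses Prox1. Summed, 5 endothelial markers had 7.97 to 42.4 RPKM in cystic EBs, 38.1 and 42.7 RPKM in liver and 277 and 292 RPKM in mesoderm. In ysE they had 2.28 RPKM at E12.5 and 10.7 and 13.1 RPKM at E9.25, with none at 0 in any library. The 5 did not all change in 1 direction in cystic EBs against either ysE stage. Against E9.25 ysE 1 was called higher and 1 lower. Their part in the Prox1 level was not tested.

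Set against E12.5 ysE, 5 of the 8 members changed in cystic EBs, 4 down and 1 up, beside 23.3% of all transcripts tested, of which 3106 were lower and 2688 higher. Against E9.25 ysE 4 were lower and 2 higher, beside 23.2% and 27.1% of all transcripts. Against liver 6 were lower and 1 higher, beside 20.9% and 24.6%. The median log2 fold change of the 7 members other than Hnf4g was -2.01, -1.40 and -1.32 in the 3 comparisons, and that of all transcripts was 0.42, 0.17 and 0.20. The 3 comparisons share the cystic EB libraries.

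**Figure D2:**
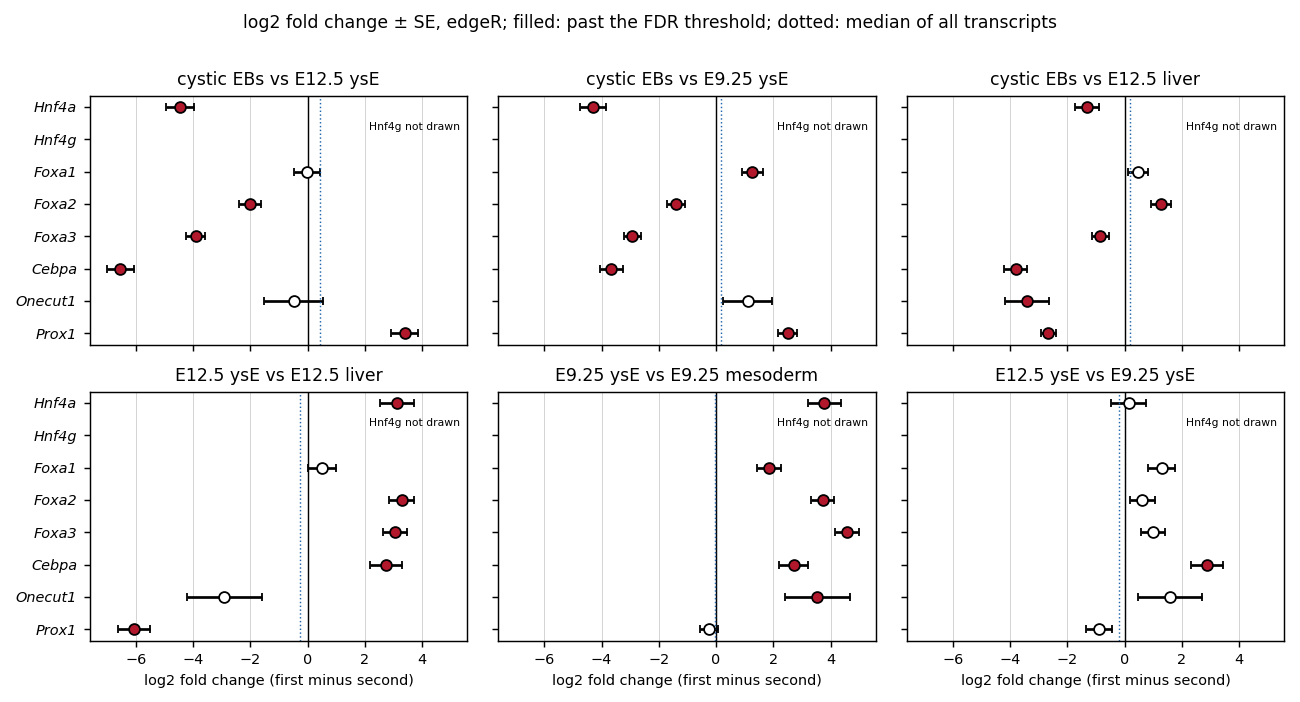
log2 fold change of 7 of the 8 members in 6 comparisons, with SE bars, filled red where the edgeR test passed its FDR threshold, and a dotted line at the median of all transcripts tested. Hnf4a, Foxa3 and Cebpa lie left of 0 in all 3 comparisons of cystic EBs, Prox1 lies right of 0 against both ysE stages and left of 0 against liver, and Hnf4g is left out because its counts are too low for a fitted fold.

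E12.5 ysE and E12.5 liver divided the set. They also differed in library kit, so tissue and kit cannot be told apart in the values that follow. Foxa2 (9.73-fold; log2 3.28 ± 0.44 SE, adjusted p = 0.000413), Hnf4a (8.72-fold; log2 3.12 ± 0.60 SE, adjusted p = 0.00258), Foxa3 (8.32-fold; log2 3.06 ± 0.42 SE, adjusted p = 0.000469) and Cebpa (6.70-fold; log2 2.74 ± 0.55 SE, adjusted p = 0.00331) were higher in ysE. Prox1 was 66.3-fold lower in ysE (log2 -6.05 ± 0.56 SE, adjusted p = 7.55e-05). Thus 4 members were higher and 1 lower, beside 22.6% and 23.7% of all transcripts. Onecut1 missed the threshold (log2 -2.91 ± 1.32 SE, adjusted p = 0.0958), which it passed with DESeq2 (adjusted p = 0.0232) and with only these 2 groups in the fit (adjusted p = 0.000547). Erythroid and blood markers made up a far larger part of liver than of ysE, with summed levels given above, and their part in the lower liver levels was not tested.

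At E9.25 the endoderm layer stood above the mesoderm layer for 6 members, and none was lower, beside 13.7% and 16.9% of all transcripts. Large differences were those of Foxa3 (23.8-fold; log2 4.57 ± 0.41 SE, adjusted p = 0.000182), Hnf4a (13.7-fold; log2 3.78 ± 0.57 SE, adjusted p = 0.00115) and Foxa2 (13.1-fold; log2 3.72 ± 0.41 SE, adjusted p = 0.000347). Without mesoderm B these log2 differences were 5.28, 4.50 and 4.61. Cebpa (6.56-fold, adjusted p = 0.00326) and Foxa1 (3.57-fold, adjusted p = 0.00953) were also higher. The Foxa1 call was lost without E9.25 ysE B (adjusted p = 0.0766), mesoderm A (0.0573) or mesoderm B (0.0766). Onecut1 passed narrowly (log2 3.53 ± 1.13 SE, adjusted p = 0.0405) and was lost without d10 A9 or without any single library of E9.25 ysE, mesoderm or liver (adjusted p = 0.0525 to 0.211). Prox1 did not differ by the test (log2 -0.25 ± 0.33 SE, adjusted p = 0.621). Mesoderm B had more Hnf4a, Foxa2 and Foxa3 than mesoderm A, and the summed yolk sac endoderm markers were also higher in B (1828 RPKM) than in A (1036 RPKM). Those markers were all detected in both mesoderm libraries, and their part in the mesoderm levels of the members was not tested.

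Between E9.25 and E12.5 in ysE, Cebpa was the member that rose. It was 7.34-fold higher at E12.5 (log2 2.88 ± 0.56 SE, n = 1 and 2, adjusted p = 0.0163), and the call was lost without E9.25 ysE A (adjusted p = 0.114) or B (0.0837). Over all transcripts 3.90% were higher and 4.57% lower. Foxa1 (log2 1.29 ± 0.48 SE, adjusted p = 0.129), Foxa3 (0.98 ± 0.42 SE, adjusted p = 0.180), Foxa2 (0.62 ± 0.44 SE, adjusted p = 0.421) and Hnf4a (0.15 ± 0.62 SE, adjusted p = 0.925) did not pass. With only these 3 libraries in the fit, Foxa1, Foxa2, Foxa3 and Onecut1 passed too (adjusted p = 1.3e-05 to 0.00429), and by DESeq2 Foxa1 did (adjusted p = 0.0154). The 2 stages also differed in library kit and E12.5 had 1 library, so stage, kit and sample cannot be told apart. Against other scalings the median of all transcripts moved by 0.16 to 0.18 in this comparison, more than in any other.

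Cystic EBs of d15 and d10 did not differ for any member, and 0 of 24858 transcripts (0%) passed, with 1358 at an unadjusted p under 0.05. Cebpa came nearest, with a log2 change of 1.21 ± 0.32 SE (adjusted p = 0.875, unadjusted p = 0.00484), higher at d15 in both clones. The libraries of one clone are paired by that clone. With the replicate block for clone 88 transcripts passed and no member did (Cebpa, log2 1.20 ± 0.29 SE, adjusted p = 0.135). By DESeq2 150 transcripts passed, again none of the members.

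Partner regulators and targets were read from lists of 20 and 18 genes. Of the 19 partner regulators tested (Nr0b2 was too low), 7 were lower and 5 higher in the cystic EBs when set against ysE of E12.5, with a list median log2 fold change of -0.48. The lowest were Nr1h4, the bile acid receptor FXR (log2 -7.89 ± 0.64 SE, adjusted p = 4.26e-05), and Creb3l3, a regulator of hepatic lipid genes (log2 -6.37 ± 0.64 SE, adjusted p = 0.000109). Higher were, above all, the endoderm and endothelial factors Sox17 (log2 8.09 ± 0.89 SE, adjusted p = 0.000164) and Sox7, which was listed at 0 in E12.5 ysE and at 0.773 to 5.65 RPKM in cystic EBs. The 0 for Sox7 comes from 1 library, and by RT-PCR the paper detected Sox7 in ysE, VYS and cystic EBs. The 12 of 19 regulators called stand beside 23.3% of all transcripts. Against E9.25 ysE 7 were lower and 7 higher, beside 23.2% and 27.1% of all transcripts, and against liver 8 were lower and 6 higher, beside 20.9% and 24.6%. In the comparison of E12.5 ysE with liver 7 were higher, led by Cebpb and Nr1h4, and 6 lower, beside 22.6% and 23.7%.

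The targets, secreted liver proteins, apolipoproteins and metabolic enzymes whose genes these factors are known to bind, were lower in cystic EBs wherever they passed the test. Against E12.5 ysE, 13 of 18 were lower and none higher in cystic EBs (median log2 fold change -5.33), 14 and none against E9.25 ysE (median -3.91) and 13 and none against liver (median -2.95). Over all transcripts, 23.3% passed in either direction in the first comparison, and 23.2% and 20.9% were lower in the others. The group means of 4 targets, Apob, Apoc3, Mttp and Ttr, were higher in cystic EBs than in liver, and none of these differences passed. Transferrin, Trf, was lowest against both ysE stages (log2 -10.15 ± 1.22 SE, adjusted p = 0.00027, and -7.26 ± 1.07 SE, adjusted p = 0.000557), and albumin, Alb, was lowest against liver (log2 -11.68 ± 1.58 SE, adjusted p = 0.00043). Between E12.5 ysE and liver 9 of 18 were higher in ysE and none lower, beside 22.6% and 23.7% of all transcripts, led by Apoc3 (log2 6.50 ± 1.04 SE, adjusted p = 0.000977) and Ttr (log2 4.67 ± 0.94 SE, adjusted p = 0.00331). From E9.25 to E12.5, a stage with 1 library, 2 of 18 rose in ysE beside 3.90% of all transcripts, Alb (log2 8.51 ± 1.99 SE, adjusted p = 0.0318) and the urea cycle enzyme Cps1 (log2 7.49 ± 1.46 SE, adjusted p = 0.0167). Between E9.25 ysE and mesoderm 10 were higher and none lower, beside 13.7% and 16.9%.

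Genes with the profile most like each member over the 11 libraries were ranked by Pearson's r of log2(RPKM + 1) among 17053 genes. The points are 11 libraries of 5 groups, not independent samples, and share tissue, kit and depth. Pde6c (r = 0.991) was nearest to Hnf4a, Mpzl2 (0.979) to Foxa2, Pkp4 (0.973) to Foxa3, Map3k1 (0.975) to Foxa1, Baiap2l2 (0.993) to Cebpa, Aldh1a1 (0.986) to Onecut1 and P2ry4 (0.991) to Prox1. Within the set, Hnf4a and Foxa3 had r = 0.898, Foxa2 and Foxa3 0.847 and Onecut1 and Prox1 0.919, while Hnf4a and Prox1 had r = -0.360.

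Exon-part counts bore on which start of Hnf4a was used. The files number the parts of a gene in genome order and give no coordinates, so part 1 of the plus-strand gene Hnf4a is the one furthest upstream, and which part follows the proximal start was not given in the sources used here. Part 4 was the first with a level like that of the later exons in ysE. In E9.25 ysE replicate A part 1 had 3 counts and part 4 had 1549, a share of part 1 of 0.193% of both (exact 95% interval 0.0399 to 0.564%, counting error only). In cystic EBs the counts of parts 1 and 4 were 14 and 40 in d10 A9 (25.9%), 12 and 32 in d15 A9 (27.3%), 48 and 27 in d10 JN (64.0%) and 77 and 51 in d15 JN (60.2%). Every cystic EB library thus had a larger share of part 1 than ysE, and both JN libraries had a larger share than both A9 libraries. Scaled to all exon-part counts, part 1 was at 0.304 to 0.838 CPM in cystic EBs and 0.0340 CPM in ysE, and part 4 at 0.333 to 0.956 CPM and 17.6 CPM.

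In a test of exon usage over 231290 parts (edgeR's diffSpliceDGE, 4 cystic EB libraries against 1 ysE library), part 1 of Hnf4a had a log2 usage difference of 5.17, which did not pass (unadjusted p = 4.23e-05, adjusted p = 0.245). Only 23 parts, 0.00994% of those tested, passed, none in a member. Among dUTP libraries alone, JN cystic EBs against ysE, it passed (log2 6.01, adjusted p = 0.00501), and it was then the one part of any member to do so. In both tests ysE was 1 library, so the spread came from the cystic EB libraries alone, and among dUTP libraries from d10 and d15 of 1 clone. ScriptSeq libraries held more of their Hnf4a counts in part 16, 76.1% and 80.3% in A9 against 55.4% and 55.1% in JN and 59.2% in ysE. For Foxa3, a minus-strand gene, part 2 likewise held 94.9% and 94.2% in A9 against 67.7% to 68.5% in the dUTP libraries. The file of E9.25 ysE replicate B summed to 0 counts, and E12.5 ysE was not analysed here at this level.

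**Figure D3:**
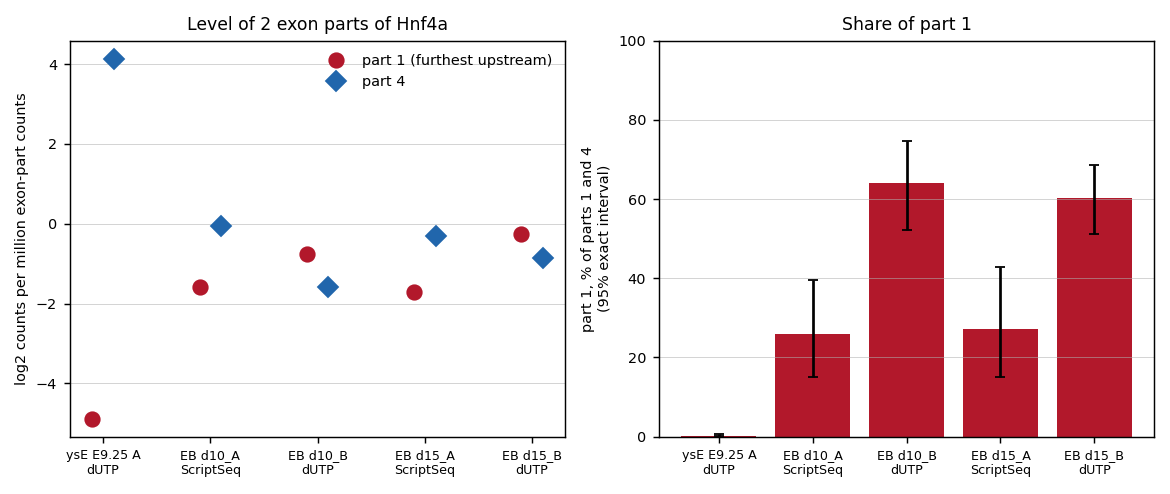
Left, log2 CPM of exon-part counts of part 1 and part 4 of Hnf4a in 1 E9.25 ysE and 4 cystic EB libraries. Right, part 1 as a percent of parts 1 and 4 with exact 95% intervals, 0.193% in ysE, 25.9% and 27.3% in A9 and 64.0% and 60.2% in JN cystic EBs.

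H3K4me3, a mark of active and poised starts, was measured in whole E12.5 VYS, endoderm and mesoderm together, with no replicate. All 11 starts of the 7 matched members lay under 1 of the 22343 called peaks, and a peak also lay over the upstream end of the annotated span of Hnf4g. The share of all starts that lie under a peak was not counted, so no excess among the members can be read from this. The MACS score, -10 times the log10 of the p-value, has a median of 862.88 over all peaks and stands at 3100 or above in 5529. It was 3100 over Cebpa (4719 bases), Foxa3 (4123 bases), the proximal start of Hnf4a (3517 bases) and 2 of the starts of Foxa2 (3048 bases). Foxa1 had a score of 1679 and the first start of Foxa2 1019. The distal start of Hnf4a had a score of 194.89 over 755 bases. Prox1 had 874.82 and 194.3 at its 2 starts, and Onecut1 and Hnf4g, with 62.8 and 55.7 over 455 and 435 bases, were near the lowest score in the list, 50.06. The 4 members with the widest peaks, Cebpa, Foxa3, Hnf4a and Foxa2, were also the 4 with the highest RPKM in E12.5 ysE.

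Another peak of score 3100, chr2:163538734-163541964, lay inside Hnf4a between its starts. The expression tables also list the antisense transcript Hnf4aos (NR_027970), whose position relative to this peak was not checked. Hnf4aos had 133 counts (3.66 RPKM) in E12.5 ysE, 137 and 208 counts (1.36 and 1.38 RPKM) in E9.25 ysE, 8 and 28 in mesoderm, 4 in each liver library and 2 to 6 in cystic EBs. Like Hnf4a it was far higher in ysE than in any other group, but below ysE its order differed, with liver under mesoderm. In the non-stranded E12.5 library reads of the 2 strands cannot be told apart.

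Methylation at CpGs was measured at a mean of 1.80 to 2.21 reads per CpG call, so reads were summed within 1 kb of each start, for libraries with at least 5 reads there. Values are given as mean ± SD of 2 libraries, or as 1 value where 1 library had enough reads. With 2 libraries per tissue an exact two-sided permutation test cannot go below p = 0.333, so no test was made. At the proximal start of Hnf4a cystic EBs had 13 of 13 (CxF) and 11 of 11 (FxC) reads methylated, ysE CxF had 5 of 14 (35.7%, Wilson 95% interval 16.3 to 61.2%) and liver FxC 11 of 18 (61.1%, 38.6 to 79.7%). At the distal start the level was 89.5% in cystic EBs (CxF, 19 reads), 28.2% ± 11.6 in ysE and 72.4% ± 1.35 in liver. Within 2 kb instead, cystic EBs had 63.9% ± 37.4 at the distal start and 66.0% ± 16.6 at the proximal one. There ysE had 39.3% ± 20.2 and 31.25% (1 library), and liver 76.7% ± 4.71 and 41.5% (1 library). The Foxa3 window had 83.3% ± 23.6 in cystic EBs, 4.76% ± 6.73 in ysE and, in liver, 100% (7 of 7 reads, CxF) and 5.56% (1 of 18 reads, FxC), so that liver gave no single value. The windows of Prox1 and Onecut1 had means of 5.0% to 32.2% in every tissue, with single libraries up to 45.7%. The 3 windows of Foxa2 overlap, and had means of 46.4% to 58.6% in cystic EBs (SD 15.2 to 32.9) against 24.4% to 33.2% in ysE (SD 13.7 to 26.1), so that the spread between libraries was as large as the difference. Cebpa had no ysE reads and 1 of 13 methylated in cystic EBs (7.69%).

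Of the 10 starts with values in both, 9 were higher in cystic EBs than in ysE, with a median difference of 28.5 percentage points. Over 22464 starts 73.1% were higher, with a median difference of 16.7, so the share of members reflects a difference that most starts had. With FxC libraries alone 3 of 7 starts were higher (Foxa3 and both starts of Prox1), beside 66.6% of all starts, and the median difference of the members was -7.14 points. With CxF alone it was 8 of 9, beside 70.3%, and the median was 53.1 points. The sign of the median thus differed between the CxF and FxC libraries, but the starts with enough reads differed as well. Neither start of Hnf4a had a value in FxC libraries of both tissues. The overlapping windows of Foxa2 counted as separate starts in both sets. Cross, ES clone and set of starts therefore cannot be told apart in these medians.

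Hnf4a was also followed in 5 kb steps. From 10 to 5 kb before the proximal start lies the peak between the 2 starts. In this step ysE had 0 of 13 (CxF) and 0 of 2 (FxC) reads methylated. Liver had 4 of 4 and 18 of 23 there, and cystic EBs 15 of 17 and 38 of 39. This was the step with the widest gap. In the 5 kb just before the proximal start ysE and cystic EBs were close. There ysE had 30 of 38 (CxF) and 11 of 14 (FxC) reads and cystic EBs 38 of 45 and 47 of 65. From 0 to 5 kb after it ysE had 19 of 29 and 1 of 4, and cystic EBs 14 of 19 and 17 of 19. From 5 to 10 kb after the start ysE also stood below. It had 13 of 33 (CxF) and 2 of 7 (FxC) reads against 14 of 14 and 18 of 19 in cystic EBs. Over the whole gene the tissues were closer, with 82.4% ± 3.11 for cystic EBs, 73.8% ± 6.13 for liver and 67.1% ± 14.1 for ysE.

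**Figure D4:**
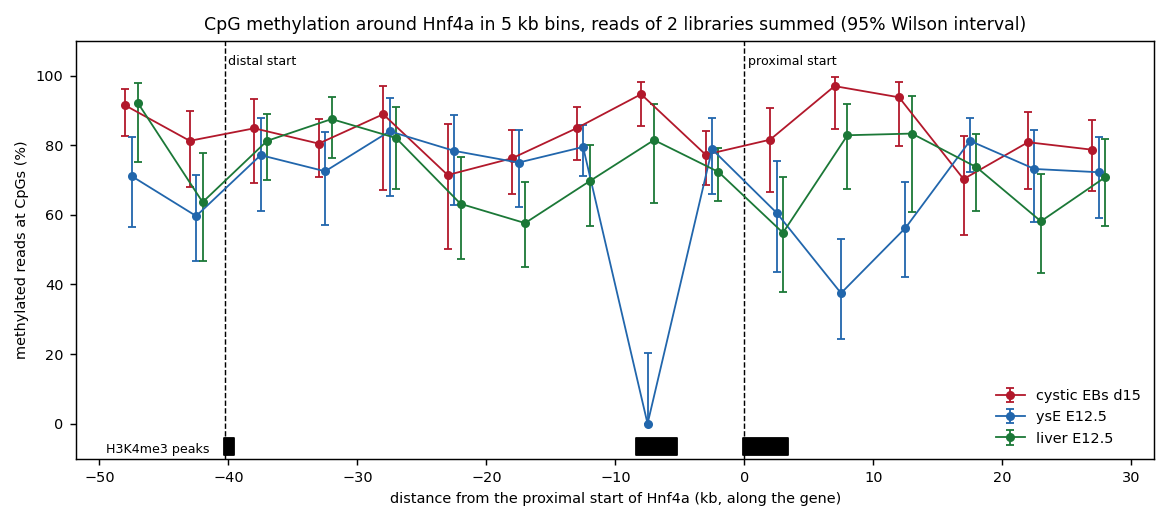
Percent of reads methylated at CpGs in 5 kb bins from 50 kb before to 30 kb after the proximal start of Hnf4a, reads of 2 libraries summed, with Wilson 95% intervals and black bars at the H3K4me3 peaks of VYS. The blue line for ysE falls to 0 in the bin before the proximal start that holds the middle peak, and the lines for liver and cystic EBs do not.

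Methylation was also summed over whole genes. In ysE the body of Hnf4g had 25% and 17.3% of reads methylated (21.1% ± 5.45), in liver 66.9% ± 1.69 and in cystic EBs 84.4% ± 3.85, and 1.11% of 16384 gene bodies with at least 20 reads lay below it in ysE. In ysE the bodies of Hnf4a, Prox1 and Onecut1, the next longest members, had 63.6% to 72.8%. Foxa1 had 10.6% ± 2.69 in liver, 71.2% ± 8.97 in ysE and 93.5% ± 3.60 in cystic EBs, and 0.278% of 15805 gene bodies lay below it in liver, where its RNA was at 0.384 RPKM ± 0.079. The short gene Foxa2 had means of 23.8% to 33.1% in the 3 tissues, and Cebpa had 16.6% ± 2.25 in cystic EBs, 25% in ysE and 46.2% in liver, the last 2 from 1 library each. Prox1 and Onecut1 lay at 72.8% ± 4.71 and 63.6% ± 3.97 in ysE and 86.1% ± 3.08 and 83.8% ± 6.10 in cystic EBs. The median gene body was at 69.9% for ysE, 79.8% for liver and 84.0% for cystic EBs.

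**Figure D5:**
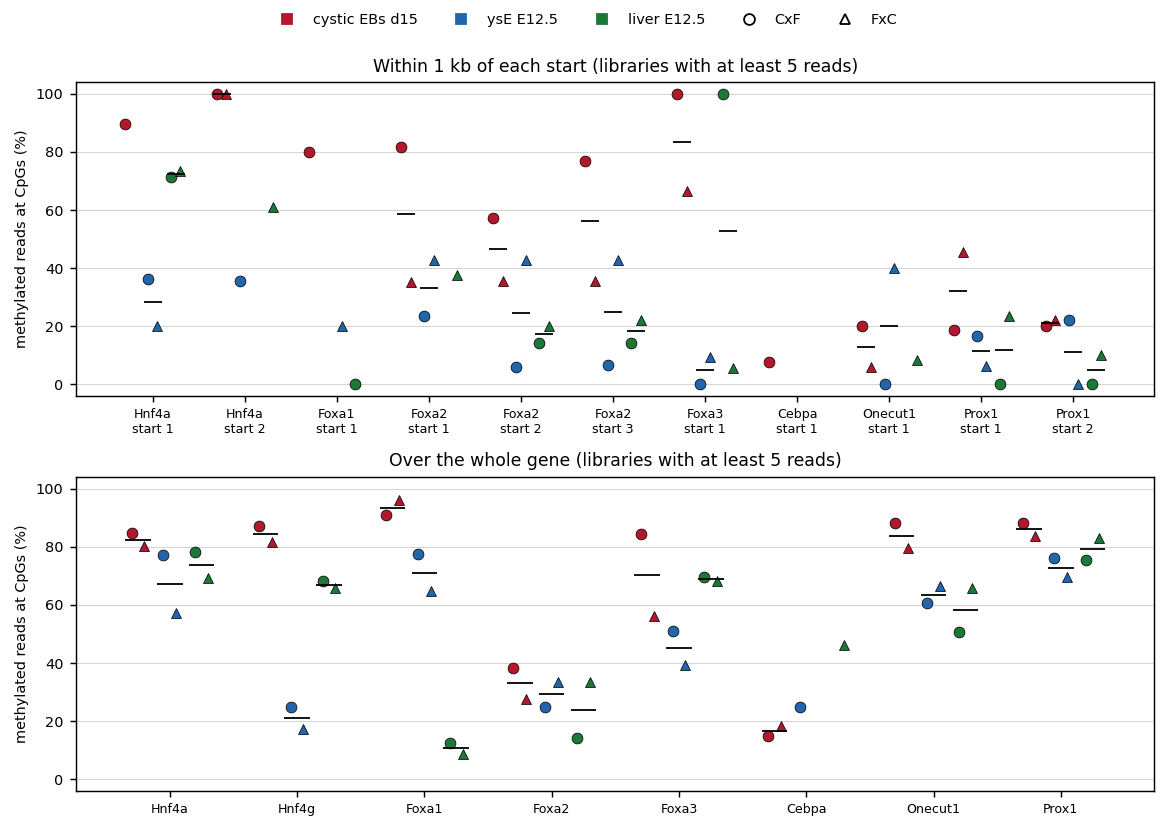
Percent of reads methylated at CpGs within 1 kb of each start (top) and over each whole gene (bottom), 1 point per library with at least 5 reads, coloured by tissue and shaped by cross, with a line at the mean where both libraries have a value. Hnf4g in ysE and Foxa1 in liver stand apart from the other tissues over the whole gene.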

How the data were processed

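RNA-seq was analysed for 11 libraries, whole-genome bisulfite sequencing for 6 and H3K4me3 ChIP-seq for 1. The authors deposited read counts and RPKM values per RefSeq transcript, counts per exon part, peak scores from MACS, and methylation as a percent per CpG with its read number. Per the labels, GSNAP and MACS were used with the mm10 build. Counts were tested with edgeR 4.0.16 in R 4.3.3 (TMM scaling, filterByExpr, quasi-likelihood test, Benjamini-Hochberg adjustment), with 5 groups in 1 fit and, for d15 against d10, 6 groups. DESeq2 1.42.0, other scaling, no filter, only the groups compared, 1 library kit and leaving out each library were alternatives. Exon parts were tested with diffSpliceDGE, and rows that name no gene, 28.7% to 36.1% of exon counts, were left out. Methylated reads were summed per window, with Wilson intervals that, like all intervals here, cover counting error only. The code was tested on simulated data.

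Where nothing says that samples came from separate cultures or litters, p-values measure only the spread between these samples. No label says whether letters shared between tissues, such as the layers of the E9.25 yolk sac, pair samples, and the main fits did not pair them. Libraries of d10 and d15 are paired by ES clone. The A9 minus JN differences of d10 and d15 had a correlation of 0.638, in which clone and library kit cannot be told apart. The members, gene lists and rules were chosen with earlier results of these data known, and the motifs after the sequences were seen. Beside the members, genes were named from the lists by the largest changes past the threshold.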

Additional observations from a re-analysis of the deposited data

Results flagged for a closer look

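Clones A9 and JN moved in opposite directions from d10 to d15 for 3 members, each from 1 library per clone and day, and the difference was not tested. Hnf4a changed by -0.09 on the log2 RPKM scale in A9 and 0.65 in JN, a difference of 0.748. Foxa1 changed by -0.19 in A9 and 0.10 in JN, a difference of 0.283. Prox1 changed by -0.27 in A9 and 0.02 in JN, a difference of 0.289. Clone and library kit cannot be told apart here.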

How the results depend on the processing

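Of 471 alternative values for the 30 called fold changes, 443 stayed past the threshold in the same direction, 28 did not pass (26 of them with 1 library left out) and 0 reversed. These include fits that left out a library of a group outside the comparison, which bear little on the call. The E12.5 ysE library could not be left out of its own comparisons. For E12.5 against E9.25 ysE, 1 member was called, 2 by DESeq2, 5 with only the groups compared and 0 to 1 with 1 library left out. Against liver, 7 members were called in cystic EBs, and 3 to 7 with 1 library left out. In exon usage 0 member parts passed, and 1 within dUTP libraries. Promoter windows were higher in cystic EBs at 9 of 10 starts, with a median difference of 28.5 percentage points. With windows of 500 bases it was 2 of 4 (median 10.7), and with windows of 2 kb 8 of 11 (11.3). With at least 10 reads it was 7 of 8 (42.3), with CxF libraries only 8 of 9 (53.1) and with FxC libraries only 3 of 7 (-7.14). The cause was not tested.

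Values that changed sign were all uncalled. Onecut1 against E9.25 ysE was -0.40 within dUTP libraries, and Foxa2 for d15 against d10 was -0.0010 by DESeq2 and -0.00098 with its size factors in edgeR. With 1 library left out, Foxa1 against E12.5 ysE ran from -0.087 to 0.030, and Hnf4g from -1.71 to 3.36 against E9.25 ysE and from -2.05 to 3.54 for E9.25 ysE against mesoderm. For d15 against d10 the ranges were -0.38 to 1.05 for Hnf4a, -3.96 to 2.45 for Hnf4g, -0.18 to 0.075 for Foxa1, -0.044 to 0.088 for Foxa2, -0.36 to 3.02 for Onecut1 and -0.38 to 0.15 for Prox1.

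Over all transcripts, cystic EBs against E12.5 ysE had 5794 calls, 1916 with only the groups compared and 8735 by DESeq2. E9.25 ysE against mesoderm had 7613 calls, 13160 with only the groups compared and 4021 without mesoderm A. E12.5 against E9.25 ysE had 2106 calls, 4018 by DESeq2, 10559 with only the groups compared and as few as 349 with 1 library left out. Cystic EBs had 12500 calls against E9.25 ysE and 7603 without its replicate B, and 11297 against liver and 6668 without liver B. For exon parts 23 passed, 703 within dUTP libraries and 1 to 10 with 1 library left out. For d15 against d10, 0 transcripts passed, 42 without d15 JN, 88 with the replicate block and 150 by DESeq2. Blocking on the shared letters, which no label ties to pairs in the other groups, left 6 members called against E9.25 ysE, 7 against liver and 6 for ysE against mesoderm. With 1 library in E12.5 ysE, its spread was taken to be that of the other groups. Each member has 1 RefSeq transcript, so no other transcript could be tried. Methylation windows of 5 to 40 reads limit those values to wide intervals.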
